A study of Hydractinia symbiolongicarpus with 45 samples.

Results

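Eggs and embryos of the colonial hydrozoan Hydractinia symbiolongicarpus, a cnidarian, were compared over the first hour after fertilization in poly(A)+ RNA. The comparison takes the poly(A)+ libraries of clutch A collected 30 min (30 m.p.f.) and 1 h (1 h.p.f.) after fertilization, which are 2 libraries, against the poly(A)+ libraries of unfertilized eggs from clutches A, C and D, which are 3. These are 5 of the 45 samples of the series. Each of the 5 samples behind them also gave a library by rRNA depletion, and those 5 libraries served as a check on the same RNA.

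All samples are wild type by their labels and were whole eggs or embryos. Each RNA sample came from many pooled eggs or embryos, and the gametes came from a single pair of breeder colonies. Gametes were mixed at 20 °C, washed after 15 minutes and moved to 23 °C at 30 m.p.f., so the 1 h.p.f. embryos had spent time at the higher temperature and the 30 m.p.f. embryos, still at the 1-cell stage, had not. Age and temperature cannot be told apart between them. The clutch letters name the collection group. There was 1 library per time point after fertilization, from the same clutch. The spread behind each test therefore came from the replicated groups of the whole fit. These were the eggs, other stages of the time course, and 7 h.p.f. embryos treated with 0.5% DMSO or with 20 µM Triptolide.

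An animal egg is loaded by the mother with mRNA that drives development until the embryonic genome is switched on. Early control of this stock acts largely through the poly(A) tail: a lengthened tail generally favours translation in early embryos, and a shortened tail generally precedes silencing or decay. Poly(A)+ selection captures an mRNA by its tail, whereas rRNA depletion leaves an mRNA in the library whatever its tail, so the level of a gene in poly(A)+ RNA reflects both how much mRNA is present and how well it is captured. Gene models are given below by their identifiers, with a name where the study's text gives one, because the sources used here do not name most of them. Levels are given as TPM, counts per coding length scaled to the same total in each library.

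The poly(A)+ libraries held 27970174 estimated counts at 30 m.p.f., 32015981 at 1 h.p.f., and 20530081 to 30039305 in eggs. The rRNA-depleted libraries held 3503063 counts at 30 m.p.f., 13021277 at 1 h.p.f., and 11339468 to 16824435 in eggs, so the rRNA-depleted library at 30 m.p.f. is the shallowest of these. Poly(A)+ libraries detected 11043 gene models at 1 TPM or more at 30 m.p.f. and 11050 at 1 h.p.f., against 11031, 11117 and 11104 in the eggs. The difference did not exceed the spread between libraries by the exact two-sided permutation test (p = 0.4). The share of counts in the 100 most abundant gene models was 16.6% at 30 m.p.f. and 17.4% at 1 h.p.f., against 15.5 to 17.4% in eggs (exact permutation p = 0.5). With 2 libraries against 3 the smallest p that this test can give is 0.1.

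Genes that the study describes as starting with the embryonic genome were low at these stages. The forkhead gene HyS0062.47 had 0.584 TPM at 30 m.p.f. and 0.117 TPM after 1 h, against 0.249 to 0.513 TPM in eggs, and reached a mean of 492 TPM at 7 h.p.f. The ammonium transporter gene HyS0101.18 had 1.54 and 1.28 TPM at 30 m.p.f. and 1 h.p.f., against 0.902 to 1.07 TPM in eggs, and 1070 TPM at 7 h.p.f. Each of the 13 predicted H4K20 methyltransferase genes listed as activated by 4 h.p.f. stayed at or below 0.119 TPM in all 5 poly(A)+ libraries.

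The whole transcriptome moved little in the first 30 minutes. Over the 9938 gene models with a mean of at least 5 TPM in egg poly(A)+ libraries, log2 levels (pseudocount 0.1 TPM) differed with an SD of 0.249 between 30 m.p.f. and egg of clutch A. The SD was 0.329 between 1 h.p.f. and egg of the same clutch, and 0.345 between 1 h.p.f. and 30 m.p.f. Eggs of different clutches stood further apart, with an SD of 0.472 between clutches A and C and 0.432 between A and D, whereas eggs of C and D differed by 0.21. Clutch A, which holds both libraries after fertilization, is thus the egg clutch that stands apart from the other eggs. The rRNA-depleted eggs showed the same arrangement, with 0.521 between A and C, 0.534 between A and D, and 0.275 between C and D. At 1 h.p.f. 142 of these gene models were at least 2-fold lower than in the clutch A egg and 17 at least 2-fold higher, whereas at 30 m.p.f. 18 were lower and 6 higher.

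Tests across 18928 gene models gave 8 that were lower in the first hour than in eggs and none that was higher (edgeR quasi-likelihood test, Benjamini-Hochberg adjusted p under 0.05, called from here on). This is 0.0423% of those tested for lower and 0% for higher. Without adjustment 197 gene models were higher and 673 lower at p under 0.05. DESeq2, after adjustment, gave 15 higher and 105 lower. All 8 were at least 2-fold lower, all 8 were included in the DESeq2 calls, and the median log2 fold change over all gene models was 0. The 1 h.p.f. library carried this result: without it no gene model was called lower, and without the 30 m.p.f. library 53 were. Without the egg of clutch C 3 were called lower. With clutch as a replicate block 4 were called lower, of which 3 were among the 8, and with the clutch A egg as the only egg library 2 were. No gene model was called lower when both times were fitted as 1 group, or in a fit of the compared groups alone.

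HyS0101.34 had the largest decrease among the 8. Its level was 75.9, 91.0 and 64.3 TPM in eggs of clutches A, C and D, 60.7 TPM at 30 m.p.f. and 7.68 TPM after 1 h. The 30 m.p.f. library lies just below the egg range, and the 1 h.p.f. library is at 9.97% of the egg mean. The log2 fold change in the first hour was -1.79 ± 0.20 (SE, edgeR adjusted p = 0.000603). In rRNA-depleted RNA the same gene had 76.9 TPM at 30 m.p.f. and 76.2 TPM after 1 h, against 70.2, 80.9 and 89.1 TPM in eggs, and both values after fertilization are within the egg range.

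HyS0041.143 was the most abundant of the 8 in eggs, and its 30 m.p.f. level was at the low end of the egg range. It had 185, 199 and 154 TPM in eggs of clutches A, C and D, 154 TPM at 30 m.p.f. and 19.5 TPM after 1 h. Its log2 fold change in the first hour was -1.66 ± 0.18 (SE, edgeR adjusted p = 0.000603). It had 173 TPM at 30 m.p.f. and 161 TPM after 1 h in rRNA-depleted RNA, against 163, 166 and 164 TPM in eggs.

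HyS0004.187 had 80.1, 135 and 93.2 TPM in eggs of clutches A, C and D, 77.9 TPM at 30 m.p.f. and 18.9 TPM after 1 h. HyS0024.64 had 21.2, 35.6 and 25.2 TPM in eggs, 20.35 TPM at 30 m.p.f. and 3.22 TPM after 1 h. In both genes the 30 m.p.f. level is slightly below the lowest egg, and the 1 h.p.f. level is far below it. HyS0105.23 had 19.4, 29.9 and 22.6 TPM in eggs, 16.7 TPM at 30 m.p.f. and 3.56 TPM after 1 h. HyS0076.9 had 22.1, 32.6 and 21.4 TPM in eggs, 18.6 TPM at 30 m.p.f. and 4.96 TPM after 1 h. The log2 fold changes of these 4 genes in the first hour were between -1.69 (HyS0024.64) and -1.34 (HyS0076.9). The other 2 of the 8, HyS0012.87 (-1.76) and HyS0072.65 (-1.07), are described below by level. In rRNA-depleted RNA the 8 genes stood at 73.4 to 104% of their egg mean at 1 h.p.f., with a median of 90.1%.

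Taken by itself, the 30 m.p.f. library differed from eggs at a single gene model of 18928, 0.00528%, which was higher, and at none that was lower. Without adjustment 175 were higher and 360 lower at p under 0.05. Adjusted DESeq2 results were 4 higher and 17 lower. The single call was HyS2341.2, at 1.43, 3.31 and 8.05 TPM in eggs of clutches A, C and D, 81.5 TPM at 30 m.p.f. and 3.64 TPM after 1 h (log2 fold change at 30 m.p.f. 4.27 ± 0.53, SE, edgeR adjusted p = 0.00475). The call was lost without the egg of clutch C and in a fit of the compared groups alone. This gene model varied in rRNA-depleted RNA as well, where it had 196.4 TPM at 30 m.p.f. and 133 TPM after 1 h, against 65.9 TPM in the egg of clutch A and 4.71 and 4.97 TPM in the eggs of C and D. It is therefore high in clutch A samples of both library types at 30 m.p.f., and already unequal between egg clutches in rRNA-depleted RNA.

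At 1 h.p.f. 55 gene models were lower than in eggs, 0.291% of 18928, and 1 was higher, 0.00528%. Without adjustment 166 were higher and 554 lower at p under 0.05. DESeq2 called 13 higher and 237 lower, and its lower calls held all 55. All 55 were below every egg library, as were 2980 of the 9938 gene models at 5 TPM or more in eggs. At 30 m.p.f. 24 of the 55 were below every egg library, against 2725 of the 9938, 29 were within the range of the eggs and 2 above it. The 55 held 55 different sets of counts, so none of them is a copy of another. Leaving out the egg of clutch C gave 21 lower calls, that of clutch D 32 and that of clutch A 40. Clutch as a replicate block gave 24, all among the 55, and the clutch A egg as the only egg library gave 16.

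**Figure D1:**
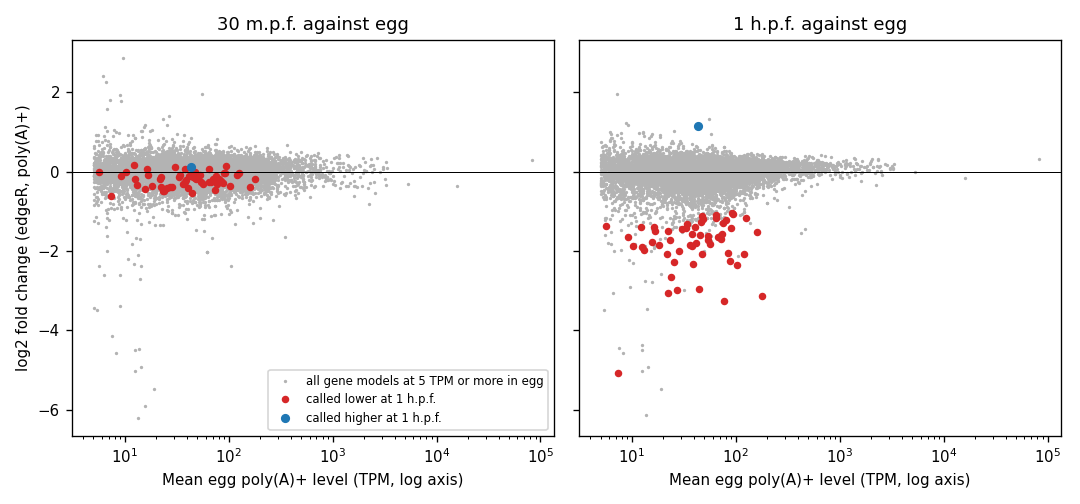
The log2 fold change against egg in poly(A)+ RNA (vertical axis, edgeR) is plotted against the mean egg level in TPM (horizontal log axis) for the 9938 gene models at 5 TPM or more in eggs, at 30 m.p.f. (left) and 1 h.p.f. (right). The 55 gene models called lower at 1 h.p.f. (red) lie close to 0 at 30 m.p.f., and the gene called higher at 1 h.p.f. is in blue.

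Of the 55, 54 stood at 9.97 to 46.5% of their egg mean at 1 h.p.f., with a median of 29.5%, and at 66.0 to 110% at 30 m.p.f., with a median of 85.9%. The exception, HyS0230.2, had 5.44, 7.74 and 8.85 TPM in eggs of clutches A, C and D, 4.57 TPM at 30 m.p.f. and 0.0159 TPM after 1 h, where its estimated count was 0.27. Set against a floor of 3 counts in the 1 h.p.f. library, it was at least 41.9-fold lower than in eggs. In the pilot poly(A)+ library, also labelled 1 h.p.f., it had 11.5 TPM, above all 3 eggs. It was back at 5.00 and 8.76 TPM at 2 h.p.f. in clutches A and C, and it was below 0.6 TPM in all 5 rRNA-depleted libraries of eggs and the first hour. The call for HyS0230.2 was lost with clutch as a replicate block and with the clutch A egg as the only egg library.

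The 55 spanned egg levels of 5.61 to 179 TPM, with a median of 41.4 TPM, against a median of 51.5 TPM over the gene models at 5 TPM or more in eggs. Their coding lengths ran from 264 to 8481 bases, with a median of 1845 bases against 1365. The egg libraries held them at a lower poly(A)+ level relative to rRNA-depleted level than other genes, with a median log2 ratio of -0.50 against -0.13. This ratio uses the same egg poly(A)+ libraries that chose the 55.

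A predicted metabotropic glutamate receptor gene, HyS0020.263, which the study names as a cleared mRNA with predicted miRNA sites, was among the 55. It had 16.0, 19.1 and 13.96 TPM in eggs of clutches A, C and D, 16.9 TPM at 30 m.p.f. and 5.95 TPM after 1 h. The 30 m.p.f. level is within the egg range and the 1 h.p.f. level is 36.4% of the egg mean (log2 fold change -1.39 ± 0.29, SE, edgeR adjusted p = 0.0454). In rRNA-depleted RNA it had 64.5 TPM at 30 m.p.f. and 66.0 TPM after 1 h, against 56.3 to 66.7 TPM in eggs.

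The gene higher at 1 h.p.f. was HyS0010.395. It had 33.2, 41.6 and 55.9 TPM in eggs of clutches A, C and D, 46.3 TPM at 30 m.p.f. and 91.9 TPM after 1 h, and then 115 and 142 TPM at 2 h.p.f. in clutches A and C. At 30 m.p.f. it was within the egg range, and at 1 h.p.f. it was at 211% of the egg mean (log2 fold change 1.146 ± 0.19, SE, edgeR adjusted p = 0.0128). The call was lost without the egg of clutch C, with library size as the scale and in a fit of the compared groups alone. In rRNA-depleted RNA it had 94.2 TPM at 30 m.p.f. and 104 TPM after 1 h, against 104 to 122 TPM in eggs.

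A few genes had higher values at 1 h.p.f. without a call, and the following were chosen after their values were seen. HyS0093.1 had 11.6, 14.8 and 12.3 TPM in eggs, 16.1 TPM at 30 m.p.f. and 24.1 TPM after 1 h. HyS0036.14 was already outside the egg range at 30 m.p.f., with 26.2, 30.7 and 29.8 TPM in eggs, 45.3 TPM at 30 m.p.f. and 47.3 TPM after 1 h (first hour against egg, log2 fold change 0.73 ± 0.14, SE, edgeR adjusted p = 0.0866). Its rRNA-depleted level was 237 TPM at 30 m.p.f. and 231 TPM after 1 h, against 244 to 273 TPM in eggs.

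The 2 libraries after fertilization were also compared with each other. This contrast holds no egg library, but the spread behind its test came from the replicated groups, the eggs among them. At 1 h.p.f. 12 gene models were lower than at 30 m.p.f., 0.0634% of 18928, and none was higher, 0%. Without adjustment 136 were higher and 337 lower at p under 0.05. DESeq2, after adjustment, gave 7 higher and 100 lower, with all 12 included. With clutch as a replicate block 6 were called, all among the 12. One of the 12 is HyS2341.2, described above, which had 3.64 TPM at 1 h.p.f. against 81.5 TPM at 30 m.p.f. (log2 fold change -4.37 ± 0.78, SE, edgeR adjusted p = 0.0457). The other 11, at 21.8 to 179 TPM in eggs on average, were also called lower at 1 h.p.f. than in eggs.

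**Figure D2:**
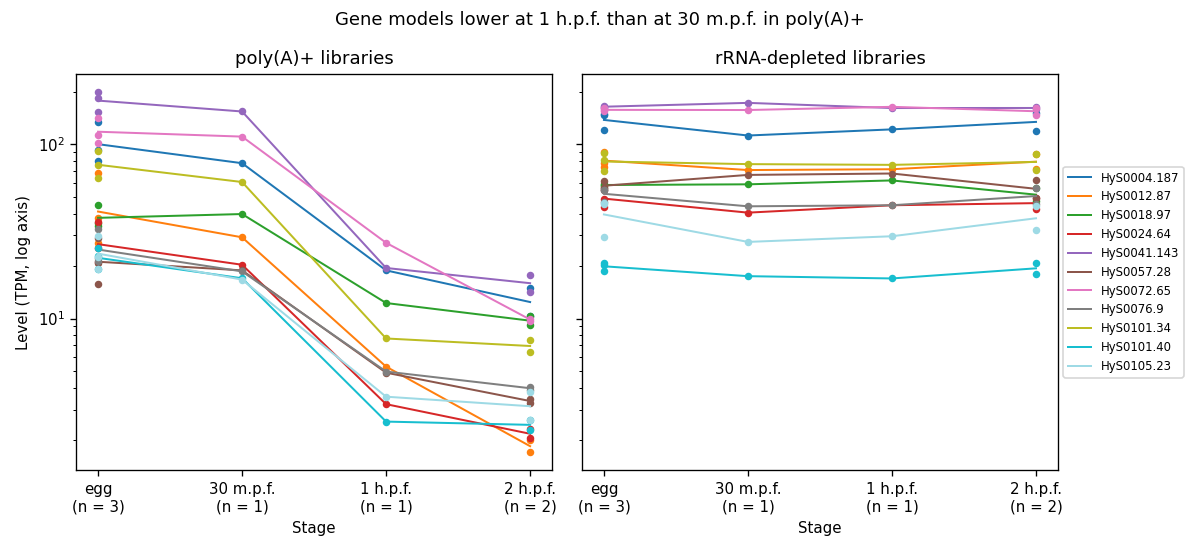
Levels in TPM (vertical log axis) of the 11 gene models at 5 TPM or more in eggs that were called lower at 1 h.p.f. than at 30 m.p.f., by stage in poly(A)+ (left) and rRNA-depleted (right) libraries. Points are libraries and lines join geometric means, and the poly(A)+ levels are at 9.97 to 32.2% of their egg mean at 1 h.p.f. while the rRNA-depleted levels are at 73.4 to 117%.

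Among these 11, HyS0041.143 had the smallest adjusted p, and it fell to 19.5 TPM at 1 h.p.f. against 154 TPM at 30 m.p.f. (log2 fold change -2.95 ± 0.29, SE, edgeR adjusted p = 0.000139). HyS0072.65 had 113.6, 142 and 102 TPM in eggs of clutches A, C and D, 110.7 TPM at 30 m.p.f. and 27.2 TPM after 1 h, and HyS0018.97 had 44.9, 34.1 and 35.4 TPM in eggs, 39.8 TPM at 30 m.p.f. and 12.3 TPM after 1 h. Both were within the egg range at 30 m.p.f. and below it at 1 h.p.f. HyS0012.87 had 27.1, 68.2 and 37.7 TPM in eggs, 29.2 TPM at 30 m.p.f. and 5.29 TPM after 1 h, so that its eggs differed by clutch and its clutch A libraries lay at the low end. HyS0057.28 had 20.9, 28.9 and 15.7 TPM in eggs, 18.9 TPM at 30 m.p.f. and 4.89 TPM after 1 h. HyS0101.40, which was below the egg range at both times, had 25.4, 22.8 and 19.2 TPM in eggs, 17.0 TPM at 30 m.p.f. and 2.56 TPM after 1 h. These 5 genes are given because they complete the 12.

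The 12 gene models can also be read in libraries outside this contrast. Those of the time course are in the same fit and helped set its spread, so that reading is not independent of the calls. The pilot library is not in the fit. At 2 h.p.f. against eggs 11 of the 12 were called lower, and the exception was HyS2341.2. This compares with 5.2% of all gene models, and with 950 of the 9938 at 5 TPM or more in eggs. In clutch C, whose 2 h.p.f. and egg libraries share nothing with the clutch A libraries after fertilization, 11 of the 12 were at least 2-fold below the egg at 2 h.p.f., against 646 of the 9938 gene models at 5 TPM or more. The poly(A)+ pilot library, labelled 1 h.p.f. and made in a separate experiment, was below the mean of the clutch C and D eggs for all 12, against 5854 of the 9938, and at least 2-fold below for 7, HyS2341.2 at 0 among them, against 92 of the 9938. HyS0041.143 had 71.1 TPM in the pilot library, HyS0101.34 had 42.3 TPM and HyS0072.65 had 61.7 TPM, all between the 1 h.p.f. level and the egg levels of the time course. The study's methods describe the pilot embryos as 2-cell embryos kept at the lower temperature, so their stage and that of the 1 h.p.f. sample need not be equal.

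Changes were also set side by side across genes. Over the 9938 gene models the change in clutch A at 30 m.p.f. had a Pearson correlation of 0.0765 and a Spearman correlation of 0.116 with the change in clutch C between egg and 2 h.p.f., whereas the change at 1 h.p.f. had correlations of 0.698 and 0.555. With the difference between the pilot library and the clutch C and D eggs, the change at 1 h.p.f. had lower correlations of 0.268 and 0.239, and that at 30 m.p.f. 0.0154 and 0.0254. The 2 changes in each of these correlations share no library. Genes are not independent replicates, and the points share the gene's own level and length, so these are descriptions. Of the 142 gene models at least 2-fold lower at 1 h.p.f. in clutch A, 133, or 93.7%, were at least 2-fold lower at 2 h.p.f. in clutch C, against 6.5% of all. Of the 17 at least 2-fold higher, 8, or 47.1%, were at least 2-fold higher in clutch C at 2 h.p.f., against 0.6% of all. Of the 18 at least 2-fold lower at 30 m.p.f., 3, or 16.7%, were at least 2-fold lower in clutch C at 2 h.p.f.

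**Figure D3:**
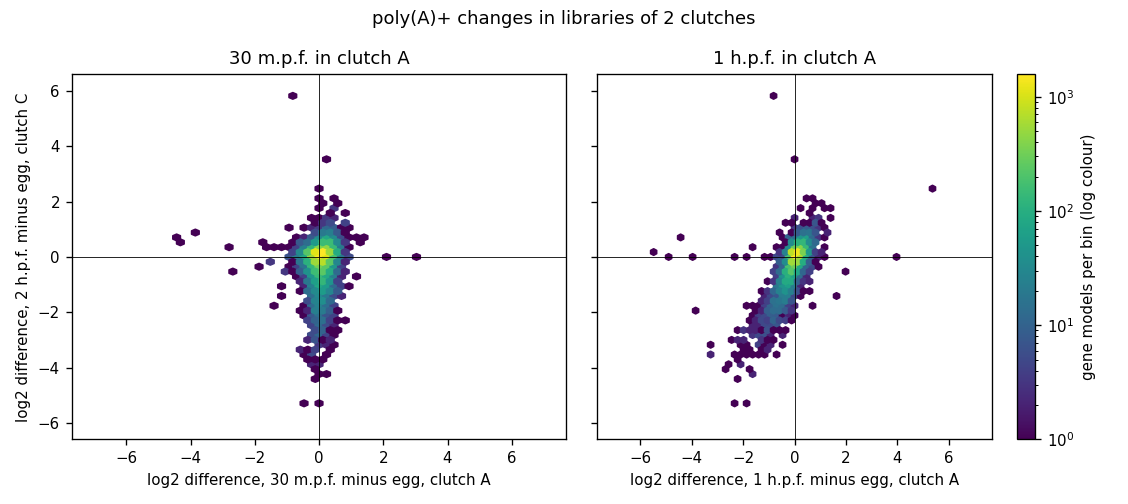
The log2 difference from egg in clutch A poly(A)+ libraries (horizontal axis) at 30 m.p.f. (left) and 1 h.p.f. (right) against the log2 difference between 2 h.p.f. and egg in clutch C (vertical axis), for 9938 gene models, with colour for the number of gene models per bin on a log scale. Points form a slanted cloud at 1 h.p.f. (Pearson correlation 0.698) and an upright cloud at 30 m.p.f. (0.0765).

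HyS0003.74, one of the 18 gene models at least 2-fold lower at 30 m.p.f. and chosen after its values were seen, had 241, 394 and 412 TPM in eggs of clutches A, C and D, 107 TPM at 30 m.p.f. and 290 TPM after 1 h. Its rRNA-depleted level was 69.5 TPM at 30 m.p.f. and 66.3 TPM after 1 h, against 70.9 TPM in the egg of clutch A and 284 and 279 TPM in the eggs of C and D. In rRNA-depleted RNA it is low in all 3 clutch A libraries. In poly(A)+ RNA HyS0003.74 is below every egg at 30 m.p.f. and within the egg range at 1 h.p.f.

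Libraries made by rRNA depletion from the same samples gave no call in the first hour against eggs, 0% of 15944 gene models in either direction by edgeR. Without adjustment 177 were higher and 405 lower at p under 0.05. Adjusted DESeq2 results were 1 higher and 1 lower. Clutch as a replicate block gave 2 higher and none lower. At 1 h.p.f. the 55 gene models stood at a median of -1.71 in poly(A)+ RNA on the log2 scale and of 0.01 by rRNA depletion, and 54 of the 55 were within 0.5 of 0 in rRNA-depleted RNA, as were 9374 of the 9938 gene models at 5 TPM or more. The exception was HyS0230.2. Tail length itself was not measured in these libraries.

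**Figure D4:**
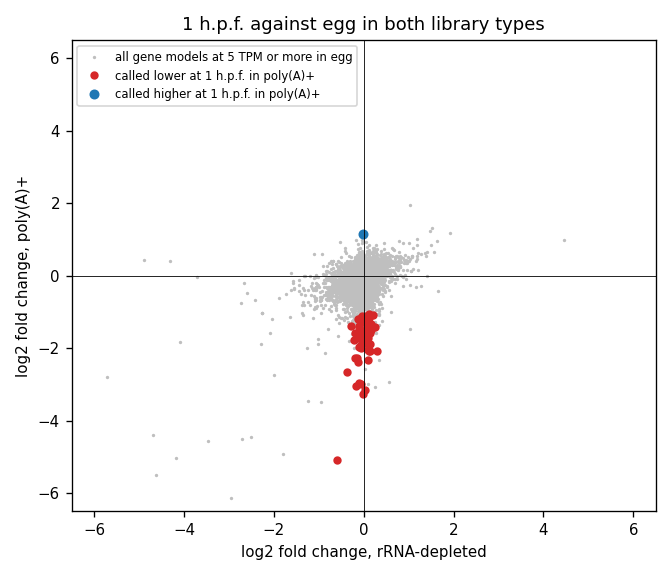
The log2 fold change at 1 h.p.f. against egg in poly(A)+ RNA (vertical axis) and in rRNA-depleted RNA (horizontal axis), from edgeR, for the 9938 gene models at 5 TPM or more in eggs. The 55 gene models called lower in poly(A)+ RNA (red) lie along the vertical line at 0, with medians of -1.71 by poly(A)+ selection and 0.01 by rRNA depletion.

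The difference between library types was tested directly as the poly(A)+ change minus the rRNA-depleted change in the first hour. It was called for 2 gene models of 19461, both lower in poly(A)+ (0.0103%), and for none in the other direction (0%). Without adjustment 231 were higher and 147 lower at p under 0.05. DESeq2, after adjustment, gave 5 higher and 22 lower. The 2 were HyS0101.34, with a difference of -1.71 ± 0.25 in log2 fold change (SE, edgeR adjusted p = 0.00338), and HyS0041.143, with -1.67 ± 0.22 (SE, edgeR adjusted p = 0.00136). Clutch as a replicate block gave 1 higher and 4 lower. The poly(A)+ and rRNA-depleted libraries of a stage and clutch came from the same RNA sample, and with that sample as a replicate block, an alternative chosen after seeing the data, 28 were higher and 50 lower. Without the 1 h.p.f. poly(A)+ library none was lower, and without the 30 m.p.f. poly(A)+ library 44 were lower and 3 higher. Both called genes depend on the 1 h.p.f. library in the same way, with differences of -0.23 for HyS0101.34 and -0.19 for HyS0041.143 without it.

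The later stages place the 55 gene models in the time course. Their median log2 difference from egg in poly(A)+ RNA was -0.22 after 30 min, -1.78 after 1 h, -2.65 after 2 h and -2.72 after 3 h, against -0.04, -0.05, 0.03 and 0.04 over all gene models at 5 TPM or more in eggs. In rRNA-depleted RNA the median for the 55 was -0.05 after 1 h, -0.04 after 2 h, -0.12 after 3 h, -0.69 after 4 h, -1.11 after 5 h, -1.78 after 6 h and -2.14 after 7 h. Over all gene models at 5 TPM or more it was -0.06, -0.01, -0.03, -0.35, -0.46, -0.48 and -0.59 at the same times. All 55 share the egg libraries with these differences, and the stages from 5 h.p.f. come from clutches other than A and C. In rRNA-depleted RNA the values at 5, 6 and 7 h.p.f. each rest on a single library of clutch B. At 2 h.p.f. against egg 54 of the 55 were called lower in poly(A)+, the exception being HyS0230.2, against 5.2% of all gene models, in a comparison that shares its egg libraries with the one that chose them. The same number was called lower after 3 h, against 6.77% of all gene models, and after 4 h, against 8.35%. Of the 9938 gene models at 5 TPM or more in eggs, 950 were called lower after 2 h, 1224 after 3 h and 1513 after 4 h. None of the 55 was called higher at these stages, where 1.19%, 3.84% and 11.2% of all gene models were.

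**Figure D5:**
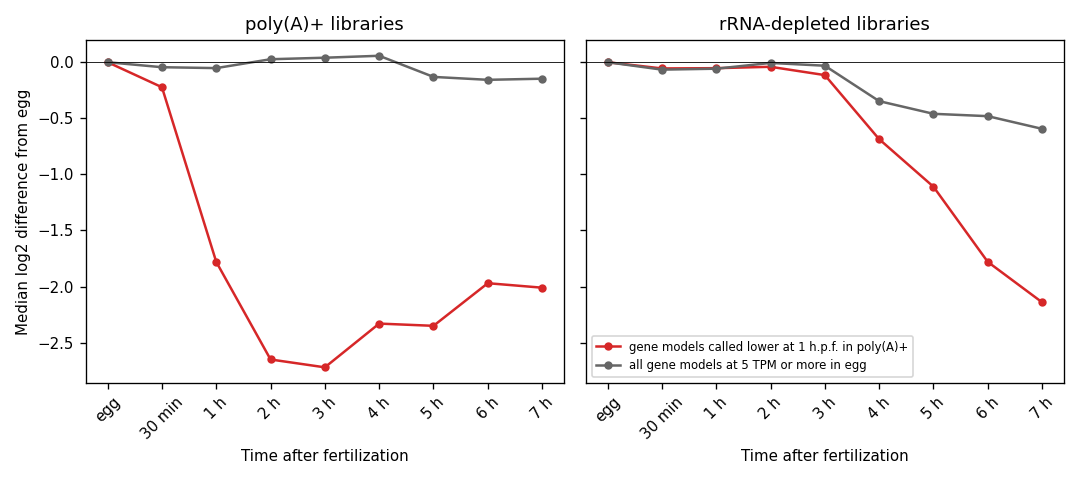
Median log2 difference from egg (vertical axis, pseudocount 0.1 TPM) by time after fertilization in poly(A)+ (left) and rRNA-depleted (right) libraries, for the 55 gene models called lower at 1 h.p.f. in poly(A)+ (red) and for all 9938 gene models at 5 TPM or more in eggs (grey). In poly(A)+ RNA the 55 stand at -1.78 by 1 h.p.f., and in rRNA-depleted RNA at -0.12 after 3 h and -2.14 after 7 h. The rRNA-depleted values at 5, 6 and 7 h each come from a single library of clutch B.

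Small shifts over all 9938 gene models, the called ones included, followed how well an mRNA was represented in egg poly(A)+ RNA. Gene models were put in 5 equal groups by the ratio of poly(A)+ to rRNA-depleted level in eggs of clutches C and D, and their change was read in clutch A, which shares no library with that ratio. Over all 9938 gene models the median change was 0.07 (log2) at 30 m.p.f. and 0.03 after 1 h. The group with the lowest ratio shifted by a median of 0.22 at 30 m.p.f. and 0.15 after 1 h, and the group with the highest ratio by -0.02 and -0.01. The groups between them had medians of 0.11, 0.06 and -0.01 at 30 m.p.f., and of 0.07, 0.03 and 0.00 at 1 h.p.f. The rRNA-depleted medians of the lowest and highest groups were -0.03 and -0.01 at 30 m.p.f., and -0.02 and -0.03 after 1 h. The quartiles of the lowest group were 0.08 and 0.34 at 30 m.p.f., so the shift is small beside the 2-fold decreases above, and each median rests on 1 library per stage. By coding length the median at 30 m.p.f. rose from 0.01 in the shortest group to 0.12 in the longest. By egg poly(A)+ level in clutches C and D the median at 30 m.p.f. was 0.14 in the lowest group and -0.01 in the highest. At 2 h.p.f. in clutch C, whose egg library is also in the ratio and the level, the order was the other way for the ratio (0.01 in the lowest group and 0.09 in the highest) and for coding length (0.11 in the shortest and -0.10 in the longest). The parts of length and level in the first pattern were not tested.

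Genes named in the study for their later roles are given by level. None of the predicted H4K20 methyltransferase genes was called in the first hour in poly(A)+ RNA, among 2 maternal, 13 activated by 4 h.p.f. and 9 activated by 7 h.p.f., where 0.0423% of all gene models were called lower and 0% higher, so that a count of 0 says nothing particular about them. These enzymes are predicted to methylate lysine 20 of histone H4, a chromatin mark. The maternal HyS0034.48 had 303, 246 and 251 TPM in eggs of clutches A, C and D, 316 TPM at 30 m.p.f. and 285 TPM after 1 h. The other maternal gene, HyS0117.8, had 13.03, 13.98 and 14.7 TPM in eggs, 13.6 TPM at 30 m.p.f. and 14.1 TPM after 1 h.

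Levels of 5 maternal transcription factors after fertilization lay within the egg range or near it. The Rfx7-like gene HyS0003.78 had 318, 402 and 384.8 TPM in eggs of clutches A, C and D, 301 TPM at 30 m.p.f. and 366.8 TPM after 1 h. The E2f2-like gene HyS0045.22, of a family that regulates the cell cycle, had 287, 396 and 361 TPM in eggs, 292 TPM at 30 m.p.f. and 340 TPM after 1 h. The Sox4-like gene HyS0005.469 had 182, 202 and 200 TPM in eggs, 188 TPM at 30 m.p.f. and 203 TPM after 1 h. The ETS-family Etv3-like gene HyS0030.200 had 160, 168 and 169 TPM in eggs, 160 TPM at 30 m.p.f. and 135 TPM after 1 h, which is below all 3 eggs. The 1 h.p.f. estimate of -0.24 ± 0.43 (log2, SE) did not pass the test. Polynem, HyS0098.14, had 18.7 TPM in the egg of clutch A and 43.3 and 39.1 TPM in those of C and D, and 21.6 and 21.7 TPM at 30 m.p.f. and 1 h.p.f. in clutch A. None of the 7 listed transcription factors, which include the forkhead gene and the Sp5-like gene HyS0057.112, both low in eggs, was called in any of the 4 poly(A)+ comparisons, where 0 to 0.291% of all gene models were called in a direction.

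The 3 genes listed for clearance are the Smaug-like gene HyS0016.179, the cleared mRNA HyS0020.263, and HyS0042.69, listed as an example of clearance. Of these, HyS0020.263 alone was called lower at 1 h.p.f., where 0.291% of all gene models were. None was called in the first hour as a whole, where 0.0423% of all were called lower and 0% higher. The Smaug-like gene HyS0016.179, whose relatives in Drosophila repress and destabilize maternal mRNA, had 95.3, 121 and 107 TPM in eggs of clutches A, C and D, 100.7 TPM at 30 m.p.f. and 93.08 TPM after 1 h. HyS0042.69 had 106, 116 and 103 TPM in eggs, 92.7 TPM at 30 m.p.f. and 79.7 TPM after 1 h, and 28.0 and 38.2 TPM at 2 h.p.f. It lay below every egg at both times, and its log2 fold change of -0.38 ± 0.22 (SE) at 1 h.p.f. did not pass the test.

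Histone genes differed mostly by library type. The 44 gene models of the histone cluster scaffold HyS0385, which hold 7 different sets of counts, summed to 20.0 TPM at 30 m.p.f. and 27.5 TPM after 1 h, against 20.7 to 23.7 TPM in eggs in poly(A)+ RNA. They summed to 1361 and 1383 TPM in rRNA-depleted RNA at 30 m.p.f. and 1 h.p.f., against 1363 to 1562 TPM in eggs. Replication-dependent histone mRNAs of animals usually lack a poly(A) tail. None of the 44 was called in either library type in the first hour. Over all gene models 0.0423% were called lower and 0% higher in poly(A)+ RNA, and 0% in rRNA-depleted RNA. A count of 0 therefore says nothing particular about them. The linker histone H1.4 has 2 gene models with identical counts. Summed over both, it had 1317, 1157 and 1204 TPM in eggs of clutches A, C and D. The sums were 1366 TPM at 30 m.p.f. and 1265 TPM after 1 h. Retrovirus-like reading frames stayed at or below 0.375 TPM in all 5 poly(A)+ libraries. None of the 5 was called in the first hour, beside the same shares over all gene models.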

How the data were processed

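The authors trimmed paired reads (Trim Galore 0.6.6, cutadapt 1.15) and assigned them to the Hsym v1.0 protein-coding transcriptome with kallisto 0.46.1, and the values deposited are estimated counts per gene model, without normalization. Counts were rounded. Gene models whose counts in a fit added up to 10 or more were tested with edgeR 4.0.16 in R 4.3.3 (TMM normalization, quasi-likelihood F test, prior count 2), with separate fits for the 25 poly(A)+ libraries (18928 gene models), the 18 rRNA-depleted libraries (15944) and, for the difference between library types, all 43 (19461). The main fits included the DMSO and Triptolide libraries and left out the pilot libraries. The first hour is the mean of the 30 m.p.f. and 1 h.p.f. coefficients minus the egg coefficient. Lengths deposited beside the counts are coding lengths in bases, all multiples of 3, and TPM was calculated from them.

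DESeq2 1.42.0, other normalizations, filters and designs, and leaving out each library were alternatives. Nothing says that clutches are separate parents, so p-values measure the spread between these collections. The clutch letters mark a shared collection group by the series' design text, which pairs the samples. Differences between clutches A and C were alike across stages. Their correlations over 9938 gene models were 0.60 to 0.81 in poly(A)+ and 0.73 to 0.84 in rRNA-depleted RNA. The main tests held no term for clutch, so they did not use this pairing. Single library values were compared by exact permutation over libraries. The correlations of changes across genes were calculated with scipy 1.17.1. Code was tested on simulated data.

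Named genes were the 8 highest and 8 lowest called in the first hour, with both libraries outside the egg range and a mean of at least 5 TPM, and the 2 highest and 2 lowest called in each other comparison at the same minimum, plus gene lists from the study; others are marked. The members and lists were chosen with earlier results of these data known. Identifiers could not be paired with gene names in the tables used here.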

Additional observations from a re-analysis of the deposited data

Results flagged for a closer look

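Each of the following results is a difference, between times or library types, that passed the test of the difference itself. Between 1 h.p.f. and 30 m.p.f. in poly(A)+ RNA the log2 fold change was -2.01 for HyS0004.187, -2.41 for HyS0012.87, -1.66 for HyS0018.97, -2.60 for HyS0024.64, -2.95 for HyS0041.143 and -1.91 for HyS0057.28. It was -1.99 for HyS0072.65, -1.87 for HyS0076.9, -2.94 for HyS0101.34, -2.67 for HyS0101.40, -2.17 for HyS0105.23 and -4.37 for HyS2341.2. The poly(A)+ change in the first hour minus the rRNA-depleted change was -1.67 for HyS0041.143 and -1.71 for HyS0101.34. Not every difference between times held in the alternatives. HyS0012.87, HyS0018.97, HyS0057.28, HyS0076.9 and HyS2341.2 lost the call with clutch as a replicate block, with library size alone and with edgeR's default filter. HyS0024.64, HyS0072.65, HyS0101.40 and HyS0105.23 lost it under some of these. HyS0004.187, HyS0041.143 and HyS0101.34 kept it in all. The differences between times are between single libraries of clutch A. Those between library types set the mean of both times in clutch A against the eggs of clutches A, C and D in each library type.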

How the results depend on the processing

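No result reversed. In the first hour against egg in poly(A)+ RNA (main count 0 higher and 8 lower), DESeq2 gave 15 and 105, the replicate block by clutch 4 lower, library size alone 5 lower, no filter 19 lower, the clutch A egg alone 2 lower, 1 group for both times 0 lower, the added pilot library 1 higher and 18 lower, and the compared groups alone 0 lower. Leaving out each library gave 0 to 1 higher and 0 to 53 lower. For 30 m.p.f. (1 and 0), DESeq2 gave 4 and 17, no filter 2 higher and the compared groups alone 0 higher, and leaving out each egg gave 0 to 1 higher and 0 to 1 lower. For 1 h.p.f. (1 and 55), DESeq2 gave 13 and 237, the replicate block 24 lower, library size alone 0 and 31, the clutch A egg alone 16 lower, and the compared groups alone 0 and 26, and leaving out each egg gave 0 to 1 higher and 21 to 40 lower. For 1 h.p.f. against 30 m.p.f. (0 and 12), DESeq2 gave 7 and 100, the replicate block 6 lower, library size alone 4 lower and edgeR's default filter 5 lower. For rRNA-depleted RNA (0 and 0), DESeq2 gave 1 and 1, the replicate block 2 higher and no filter 2 lower, and leaving out each library gave 0 and 0. For the difference between library types (0 and 2), DESeq2 gave 5 and 22, the replicate block by clutch 1 and 4, and the block by sample, added after seeing the data, 28 and 50, and leaving out each library gave 0 to 3 higher and 0 to 44 lower. The cause was not tested in any of these. With 1 library per time point, leaving it out leaves no test of that time.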
